A study of Mus musculus with 6 samples.

Results

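The genes described here are 6 ADAM metalloproteases, Adam8, Adam9, Adam10, Adam15, Adam17 and Adam19, and the 2 inactive rhomboids Rhbdf1 and Rhbdf2. They were taken by gene symbol, as 8 of the 24421 rows of the count matrix. The set was chosen by the KO against WT fold changes of these same libraries, so the differences of its genes between the groups are given as a description. The libraries were made from CD4+YFP+ Treg cells sorted from spleens of female C57BL/6 mice aged 8 to 11 weeks, 3 of Foxp3Cre mice (WT) and 3 of Foxp3Cre miR-142fl/fl mice (KO), with 1 RNA-seq library per mouse and no treatment. Both groups carry Cre fused to YFP under the endogenous Foxp3 promoter, and the KO mice also carry floxed miR-142 alleles, so miR-142 is deleted in cells that express Foxp3 and not by design in the other cells of the mouse.

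ADAM proteins (a disintegrin and metalloprotease) are membrane-anchored zinc proteases that cut the extracellular part of other membrane proteins close to the cell surface, a process called ectodomain shedding. Each is made with a prodomain that keeps it inactive until it is removed, for most members by furin-type proprotein convertases. ADAM17, also known as TACE, releases TNF and the IL-6 receptor, while ADAM10 starts the cleavage of Notch receptors. The iRhoms, encoded by Rhbdf1 and Rhbdf2, are rhomboid-like proteins without protease activity that carry ADAM17 through the secretory pathway, and iRhom2 has this role mainly in immune cells. Shedding itself was not measured in these libraries, which give RNA levels.

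Since the groups differ by miR-142, its mature strands and the sites found in these genes are shown first. A miRNA binds mainly through its seed, the bases near its 5′ end. The mature sequences are those of RefSeq (GRCm38.p6, chromosome 11, plus strand), with the seed in capitals. The miR-142-3p strand is printed with its seed at bases 2 to 8, then with the offset seed at bases 3 to 9 that its shorter isoform uses.
miR-142-3p: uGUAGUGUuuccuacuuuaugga
miR-142-3p with the offset seed: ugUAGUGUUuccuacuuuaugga
miR-142-5p: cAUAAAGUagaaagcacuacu

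The site complementary to the miR-142-3p seed is ACACTAC. That of its offset seed is AACACTA, which shares 6 letters with the first and can overlap it. The site of the miR-142-5p seed is ACTTTAT. They were searched on the sense strand of the longest annotated 3′ UTR of each gene (GENCODE vM21, GRCm38). Of the 8 genes, 2 held a site, in each case a single AACACTA. The stretches around these sites are printed in the direction of the mRNA, with the site in capitals.
Adam8, chr7:139978969-139978998, minus strand: aattatgactaAACACTAttcactaataaa
Adam15, chr3:89339827-89339856, minus strand: cctctgccccaAACACTAgagaagcaggag

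In Adam8 the site starts at base 490 of a 3′ UTR of 545 bases, and in Adam15 at base 66 of 271 bases. AACACTA was present in 10.2% of the 11129 tested genes with a 3′ UTR, ACACTAC in 6.99% and ACTTTAT in 15.9%, and 25.9% held at least 1 of these sites. None of these letters was found in the longest 3′ UTRs of Adam9 (1306 bases), Adam10 (2135 bases), Adam17 (1767 bases), Adam19 (3498 bases), Rhbdf1 (219 bases) or Rhbdf2 (854 bases). The median length over the tested genes was 1185 bases. The union of all annotated 3′ UTRs of each gene gave the same 2 sites. A match is a stretch of letters, and binding was not measured.

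The libraries held between 13883069 and 24042994 counts. Levels are TMM-normalised CPM, counts scaled to an effective library size that corrects for composition, and groups are given as mean ± SD (n = 3). Fold changes are KO over WT from the edgeR QLF test with its FDR over the 11658 genes that passed the filter of more than 1 CPM in at least 3 libraries. The effect of the deletion was visible at the locus: Mir142b, the antisense annotation at the targeted gene, lay between 4.14 and 9.05 CPM in WT and between 0.342 and 0.389 CPM in KO. Mir142 itself had no count in any library, WT included, so its own row cannot show the deletion. The Treg cell markers Foxp3, Cd4, Cd3e, Il2ra, Ctla4 and Ikzf2 were all above 314 CPM in every library.

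KO replicate 1 stood apart from the other 5 libraries through genes of other cell types. Of 60 marker genes on 7 lists of other cells, 53 were highest in it. The same share over all tested genes was not counted for the 6 libraries. Among the 3 KO libraries alone, KO replicate 1 was highest for 34.3% of the tested genes. The 13 monocyte and macrophage genes summed to 3018 CPM there, against between 80.3 and 161 CPM in KO replicates 2 and 3 and between 49.0 and 56.8 CPM in WT. The 12 neutrophil genes summed to 1021 CPM there, against 10.6 and 17.4 CPM in the other KO libraries and at most 5.11 CPM in WT. Of the neutrophil genes, S100a8, Mmp8 and Cxcr2 had no count in any WT library or in KO replicate 2. Ngp (1 to 9 counts) and Mmp9 (74 to 118 counts) were detected in every library besides KO replicate 1. The 9 B cell genes (250 CPM against at most 22.2 CPM) and the 7 dendritic cell genes (159 CPM against at most 6.77 CPM) were also highest in KO replicate 1, with the B cell sum of KO replicates 2 and 3 (8.48 and 12.04 CPM) below that of every WT library, and the 6 eosinophil genes reached only 10.7 CPM. The CD8 and NK cell list and the erythroid list were also highest in KO replicate 1, at 105 CPM and 11.99 CPM.

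**Figure D1:**
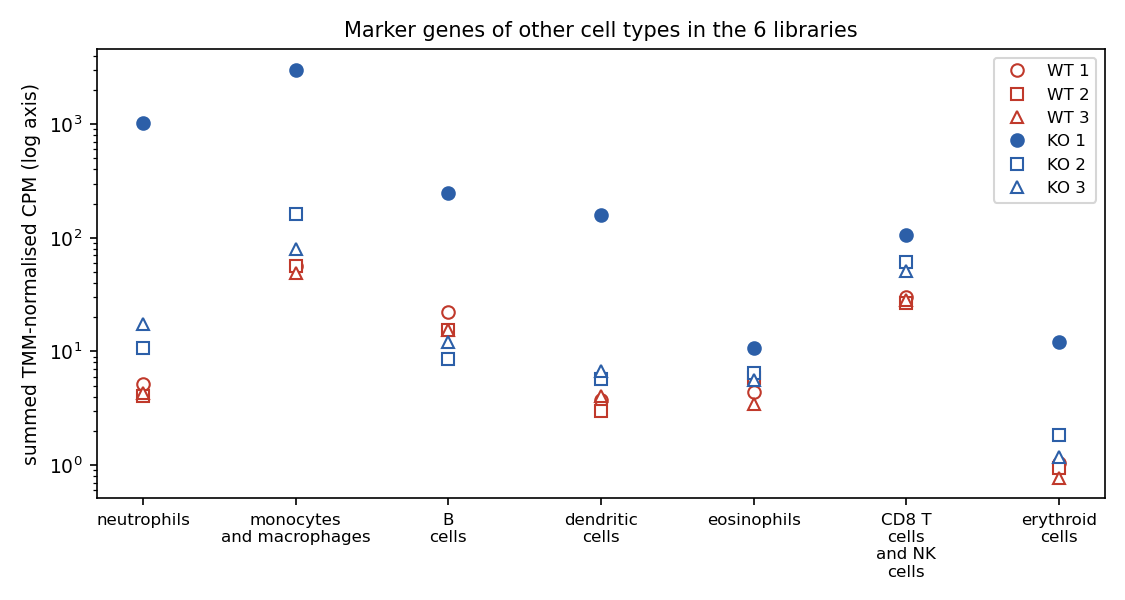
Summed TMM-normalised CPM (log axis) of marker genes of 7 other cell types, with 1 point per library, WT in red and KO in blue. The filled circle, KO replicate 1, is the highest point for every list, at 3018 CPM for monocytes and macrophages and 1021 CPM for neutrophils.

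All 8 genes passed the filter and were tested. In KO Treg cells 3 of them were called higher at an FDR under 0.05, Adam8, Adam9 and Adam19, and 0 were called lower, with none lower at an unadjusted p under 0.05 or by DESeq2. Over all tested genes 18.8% were called, 11.6% higher and 7.27% lower. Adam8 and Adam9 were higher by more than 4-fold, which held for 2.16% of the tested genes together with a call. The median log2 fold change of the 8 genes was 0.35, against 0.02 over all tested genes. The highest KO library was KO replicate 1 for every one of the 8 genes, which was so for 34.3% of the tested genes. In RNA from sorted populations, a change in the RNA per cell and a change in which cells were present cannot be told apart.

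**Figure D2:**
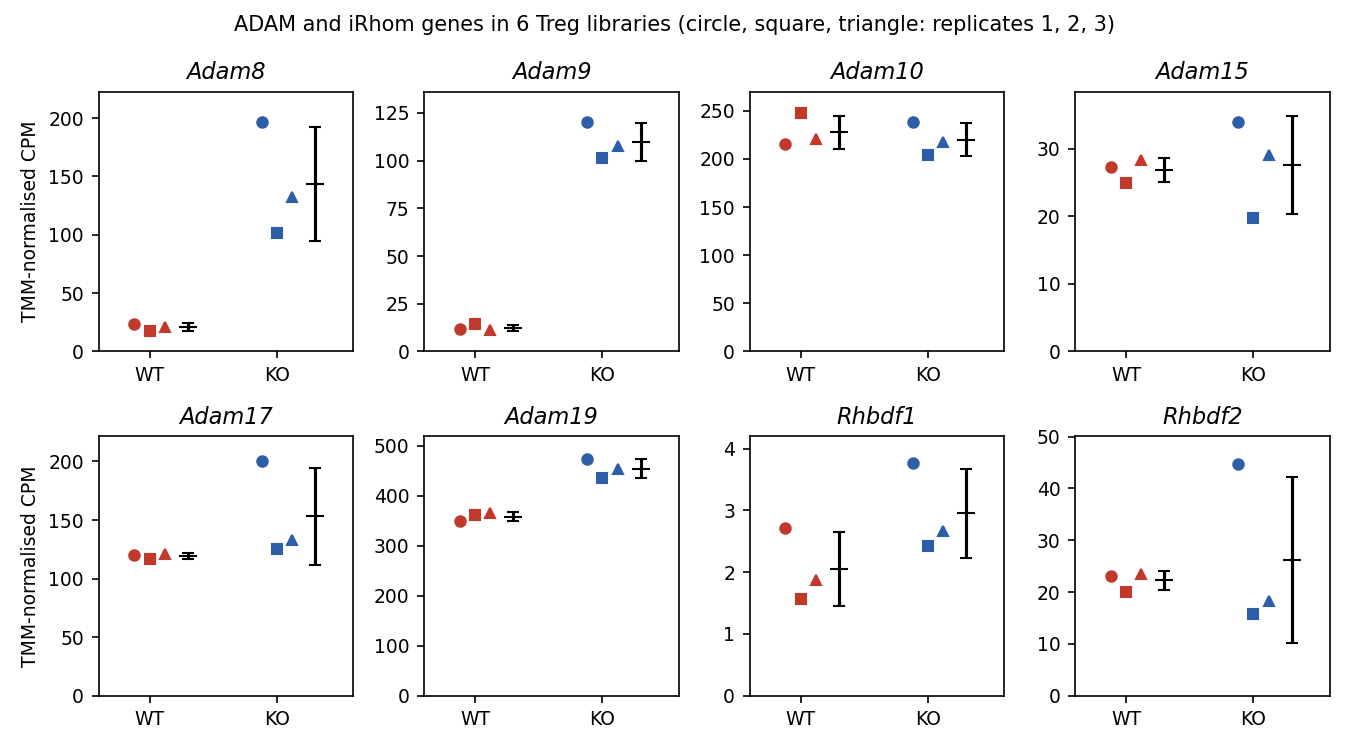
TMM-normalised CPM of the 8 genes in each library (vertical axes from 0, scales differ between panels), with replicates 1, 2 and 3 as circle, square and triangle and the mean ± SD in black. The KO points lie far above the WT points for Adam8 and Adam9, close above them for Adam19, and the 2 groups overlap for Adam10, Adam15, Rhbdf1 and Rhbdf2.

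Adam9 (chromosome 8, 24949611 to 25016927, minus strand) encodes a broadly expressed ADAM with catalytic activity. It had 11.6, 14.2 and 11.3 CPM in WT replicates 1, 2 and 3, from 188, 346 and 205 counts. In KO replicates 1, 2 and 3 it had 120, 101 and 107 CPM, from 2170, 1336 and 1570 counts. The groups were far apart, and the KO libraries lay close to each other (109.7 ± 9.84 CPM against 12.4 ± 1.58 CPM). The log2 fold change was 3.14 (SE 0.13, FDR = 0.00011), which is 8.85-fold (95% interval 7.17 to 10.9), and it ranked at position 3 of all tested genes by p-value. KO replicate 1 was 1.15 times the mean of the other KO libraries, and without it the log2 fold change was 3.05 (FDR = 2.14e-05). KO replicates 2 and 3 together were 8.43 times the WT mean. For the monocyte and macrophage, neutrophil, dendritic, CD8 and NK, and erythroid lists, KO replicates 2 and 3 lay below KO replicate 1. They also lay above every WT library. Zbtb46 made 5.07 and 6.02 CPM of their dendritic sums of 5.75 and 6.77 CPM. Eomes made 42.0 and 29.8 CPM of their CD8 and NK sums of 60.6 and 51.3 CPM. Klrb1c and Cd68, from the CD8 and NK list and the monocyte and macrophage list, were below every WT library in both. Genes on the same lists that were above every WT library in both included Csf1r, Vcam1 and Cd8a. Csf1r had 12.6 and 0.890 CPM (at most 0.830 CPM in WT), and Vcam1 had 35.1 and 11.2 CPM (at most 2.28 CPM). Cd8a had 1.97 and 0.684 CPM (at most 0.553 CPM in WT). The part of these markers in the Adam9 result was not tested.

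Adam8 (chromosome 7, 139978932 to 139992562, minus strand) encodes a sheddase known mainly from myeloid cells such as neutrophils and macrophages. Its WT libraries held 23.8, 17.2 and 21.2 CPM, and its KO libraries 197, 102 and 132 CPM. The groups did not overlap, and KO replicate 1, the library with the high myeloid markers, was 1.69 times the mean of the other KO libraries. The WT mean was 20.7 ± 3.33 CPM and the KO mean 143 ± 48.7 CPM. This gave a log2 fold change of 2.79 (SE 0.26, FDR = 0.00127), or 6.94-fold (95% interval 4.56 to 10.6). Without KO replicate 1 the log2 fold change was 2.48 (SE 0.16, FDR = 0.000144). KO replicates 2 and 3 together were 5.63 times the WT mean. In them the neutrophil list summed to 10.6 and 17.4 CPM (at most 5.11 CPM in WT) and the monocyte and macrophage list to 161 and 80.3 CPM (49.0 to 56.8 CPM in WT). Mmp9 made 8.93 CPM of the neutrophil sum in KO replicate 2, where S100a8, S100a9 and Lcn2 had no count. In KO replicate 3 these genes had 13, 18 and 6 counts, while Mmp8 and Cxcr2 had none. Elane, also on that list, had 1.21 and 4.31 CPM in KO replicates 2 and 3 and at most 0.185 CPM in WT. Ccr2 made 81.5 and 60.9 CPM of the monocyte and macrophage sums (37.2 to 49.1 CPM in WT). On that list Cd68 was below every WT library in both, while Lyz2 (1.14 and 2.19 CPM) was above them (at most 0.410 CPM). The part of these markers in the Adam8 result was not tested.

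Adam19 (chromosome 11, 46055992 to 46147343, plus strand), a member whose known substrates include neuregulins, had the highest level of the 6 ADAM genes. It had 349, 361 and 365 CPM in WT and 474, 435 and 454 CPM in KO. The libraries of each group lay close together and the groups did not overlap, although the difference was small (358 ± 8.27 against 455 ± 19.8 CPM). The log2 fold change was 0.34 (SE 0.08, FDR = 0.0273), or 1.27-fold (95% interval 1.11 to 1.45). When single libraries were left out the call was kept once in 6 fits, without KO replicate 2, and the log2 fold changes lay between 0.30 and 0.38. Without KO replicate 1 it was 0.30 (FDR = 0.0687). It was also lost with library size scaling (0.27, FDR = 0.0643) and without the filter (0.32, FDR = 0.0563). Exons of the antisense transcripts Gm16033 and Gm16034 overlap 587 and 480 bases of its exons.

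Adam17 (chromosome 12, 21323509 to 21373632, minus strand), the TNF sheddase, had 120, 117 and 121 CPM in WT and 201, 126 and 133 CPM in KO. KO replicates 2 and 3 lay only just above the WT libraries, while KO replicate 1 was 1.55 times their mean. Every KO library was above every WT library, as for 22.2% of the tested genes (41.0% had groups without overlap in either direction), but the log2 fold change of 0.36 (95% interval -0.05 to 0.77) did not pass the threshold (FDR = 0.19). Without KO replicate 1 it was 0.10 (95% interval -0.10 to 0.31). In the annotation 311 bases of its exons overlap those of Iah1 on the opposite strand, and the counts do not separate strands.

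Adam10 (chromosome 9, 70678997 to 70780229, plus strand), which cleaves Notch receptors, had levels that varied little between the groups. It had 215, 247 and 220 CPM in WT and 238, 204 and 218 CPM in KO. The groups overlapped almost entirely. The log2 fold change of -0.05 had a 95% interval from -0.28 to 0.18 (FDR = 0.762), so a change of more than 1.13-fold upward or below 0.825 of the WT level lay outside the interval. Its sign changed when WT replicate 2 or KO replicate 2 was left out.

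Adam15 (chromosome 3, 89338542 to 89349996, minus strand), an ADAM that also carries an integrin-binding motif, had 27.3, 24.9 and 28.3 CPM in WT and 34.0, 19.7 and 29.0 CPM in KO. The KO libraries spread to both sides of the WT libraries. The log2 fold change was 0.04 (95% interval -0.42 to 0.50, FDR = 0.905), and its sign changed when WT replicate 2, KO replicate 1 or KO replicate 3 was left out, and with library size scaling. Exons of an antisense transcript, 4731419I09Rik, overlap 1263 bases of its exons.

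Of the iRhom genes, Rhbdf2 (chromosome 11, 116598165 to 116627019, minus strand) had 23.1, 20.0 and 23.6 CPM in WT and 44.6, 15.7 and 18.2 CPM in KO. KO replicates 2 and 3 lay below every WT library and KO replicate 1 above all of them, at 2.63 times the mean of the other KO libraries, the largest such ratio among the 8 genes. The log2 fold change was 0.24 with all libraries (95% interval -0.64 to 1.12, FDR = 0.69) and turned to -0.41 without KO replicate 1 (95% interval -0.74 to -0.07, FDR = 0.0921). Neither value passed the threshold. The monocyte, macrophage and neutrophil markers were high in the same library, and their part in this value was not tested.

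Rhbdf1 (chromosome 11, 32209585 to 32222300, minus strand) was close to the detection limit of the filter. It had 2.71, 1.56 and 1.88 CPM in WT, from 44, 38 and 34 counts. In KO it had 3.77, 2.42 and 2.67 CPM, from 68, 32 and 39 counts. The groups overlapped through WT replicate 1. The log2 fold change was 0.54 (95% interval -0.18 to 1.26, FDR = 0.252), and a change of up to 2.40-fold remained within the interval. When 1 library was left out the value lay between 0.32 (without KO replicate 1) and 0.76 (without WT replicate 1).

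**Figure D3:**
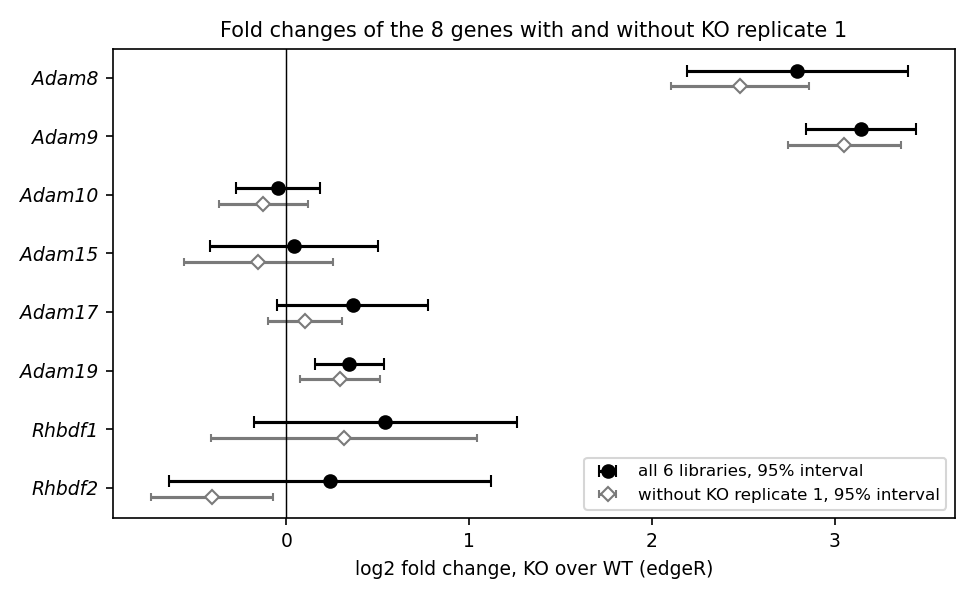
Log2 fold changes (KO over WT, horizontal axis) of the 8 genes with all 6 libraries (black) and without KO replicate 1 (grey), with 95% intervals. Adam8 and Adam9 keep values above 2.4 in both, Adam17 moves from 0.36 to 0.10, and Rhbdf2 moves from 0.24 to -0.41.

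To compare levels between genes, CPM was divided by the exon length of each gene in kilobases. In WT Treg cells Adam19 (50.4 ± 1.16 CPM per kb) and Adam10 (46.3 ± 3.53 CPM per kb) were the most abundant, and their ranges overlapped. Adam17 followed at 16.7 ± 0.35 CPM per kb, below every library of both. Adam8 (4.47 ± 0.72), Adam15 (4.37 ± 0.28) and Rhbdf2 (4.201 ± 0.36 CPM per kb) did not differ beyond their spread. Adam9, at 3.01 ± 0.38 CPM per kb, lay below them in every library, and Rhbdf1 was lowest at 0.377 ± 0.11 CPM per kb. In KO Treg cells Adam19 (63.9 ± 2.78 CPM per kb) stayed first and Adam10 (44.8 ± 3.54) second in every library. Adam8 (30.9 ± 10.5), Adam9 (26.7 ± 2.39) and Adam17 (21.4 ± 5.77 CPM per kb) came next, with overlapping ranges. Adam9 ranked 7 of 8 in each WT library and 3 or 4 in each KO library, and in every KO library its level per length was above that of Adam17, which ranked 5.

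The summed level of the 6 ADAM genes was 122, 129 and 125 CPM per kb in WT and 221, 170 and 186 CPM per kb in KO. The KO sums were all above the WT sums. Adam8 was 3.58 ± 0.66% of the sum in WT and 15.8 ± 3.21% in KO, and Adam9 was 2.40 ± 0.25% and 13.9 ± 0.61%. The share of Adam10 was 37.0 ± 1.90% in WT and 23.4 ± 1.26% in KO, although its own level overlapped between the groups.

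**Figure D4:**
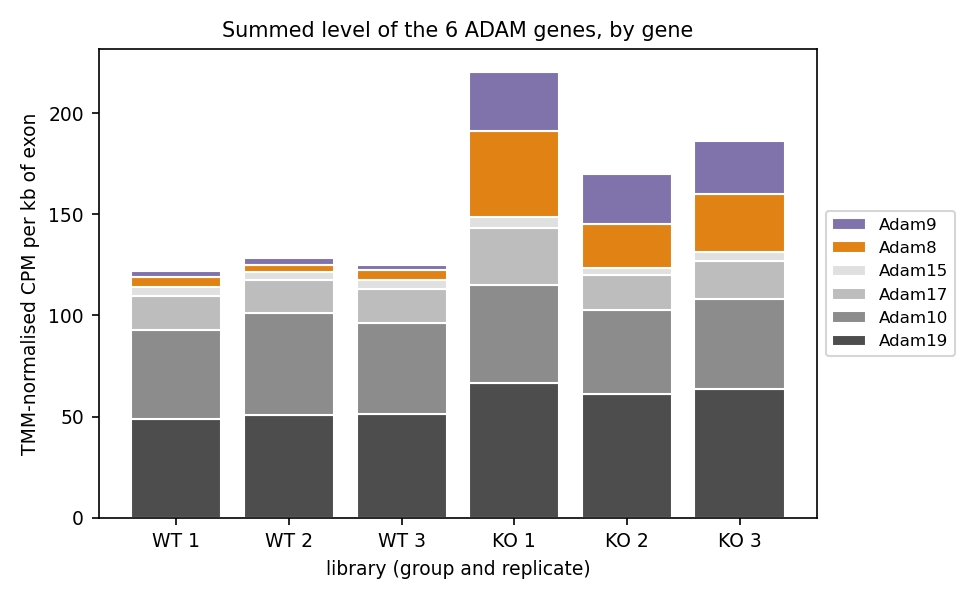
TMM-normalised CPM per kb of exon of the 6 ADAM genes, stacked for each library (WT 1 to KO 3). The grey parts (Adam19, Adam10, Adam17, Adam15) vary less between the libraries, while Adam8 (orange) and Adam9 (purple) are thin in WT and thick in KO, where the sums reach 170 to 221 CPM per kb.

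Likeness to other genes was measured as the root mean square difference between log2 CPM profiles over the 6 libraries, each centred on its own mean. The genes closest to Adam9 were Yes1, a Src family kinase (0.14), Igf2bp3, an mRNA-binding protein (0.20), and 9430020K01Rik (0.20), with log2 fold changes of 3.17, 3.28 and 3.51. The genes closest to Adam8 were Ckb, creatine kinase B (0.10), Arnt2, a bHLH-PAS transcription factor (0.16), and Gm996 (0.21), with log2 fold changes of 2.64, 2.58 and 2.53. Within a difference of 0.25 there were 7 genes for Adam9 and 8 for Adam8, against 6076 for Adam10, whose profile is nearly flat. Rhbdf2 was closest to Hexa, a lysosomal hexosaminidase (0.08), with 137 genes within 0.25.

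The remaining ADAM genes were scarcely expressed. Of 28 on a list of other ADAM family members, 12 had no count in any library and 4 were tested (Adam1a, Adam4, Adam12 and Adam22). Of these 4 genes 0 were called, against 18.8% over all tested genes. Adam12, a metalloprotease of mesenchymal cells, came closest with a log2 fold change of -0.88 (FDR = 0.0595). At an unadjusted edgeR p under 0.05 there were 2, Adam1a and Adam12, both lower in KO, and DESeq2 called 0. Among the untested genes, chosen here after their values were seen, Adamdec1, a metalloprotease of macrophages and dendritic cells, had 644 counts in KO replicate 1, 25 in KO replicate 2, 0 in KO replicate 3 and at most 3 in WT. Adam23 had 203 counts and Adam11 81 counts in KO replicate 1, and both had 0 in KO replicates 2 and 3.

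The next list held regulators of the sheddases, the TspanC8 tetraspanins that traffic ADAM10, the iRhom-binding protein FRMD8, proprotein convertases, the TIMP inhibitors, RECK and PACS2. Of its 17 genes 9 were tested, 2 were called higher and 0 lower (11.6% and 7.27% over all tested genes). Furin, the convertase that removes ADAM prodomains, had 112, 106 and 109 CPM in WT and 191, 215 and 189 CPM in KO. Its groups were well separated, and its log2 fold change of 0.87 (SE 0.08, FDR = 0.00138) was called in all 6 fits that left out a library. Timp2, a secreted metalloprotease inhibitor, rose from 91.3 ± 6.00 to 153 ± 23.6 CPM (log2 fold change 0.74, FDR = 0.00965), a call that was lost without WT replicate 2. The following regulators were picked after their values were seen. Frmd8, which stabilises the iRhoms, had a log2 fold change of -0.20 (FDR = 0.222). Tspan14 and Tspan5, the most abundant TspanC8 genes tested, had values of -0.06 (FDR = 0.749) and -0.25 (FDR = 0.121).

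Intramembrane proteases act after or beside shedding, with γ-secretase cutting the stubs that ADAM10 leaves. Of 16 such genes, BACEs included, 13 were tested, of which 1 rose and 1 fell past the threshold. The shares over all tested genes were 11.6% and 7.27%. The median log2 fold change of the 13 genes was 0.15, against 0.02 over all tested genes. Rhbdl3, an active rhomboid protease gene, fell from 5.65 ± 1.004 to 1.58 ± 0.41 CPM (log2 fold change -1.84, SE 0.27, FDR = 0.00578) and was called in all 6 fits that left out a library. Sppl3, a signal peptide peptidase-like protease, rose from 62.4 ± 4.70 to 81.5 ± 7.81 CPM (log2 fold change 0.38, FDR = 0.042). Among the fits that left out a library, that call was kept without KO replicate 3 alone, and the value without KO replicate 1 was 0.36 (FDR = 0.0685).

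The last list held proteins known to be shed by ADAM10, ADAM17 or their relatives. Of 35 genes 26 were tested, of which 9 rose and 5 fell past the threshold, and the median log2 fold change was 0.46. Over all tested genes 11.6% were called higher and 7.27% lower, with a median of 0.02. In the fits without a WT library the number called fell to 6 (without WT replicate 1), 5 (without WT replicate 2) and 6 (without WT replicate 3). In the same fits the number called over all tested genes fell from 2197 to 1022, 691 and 790. Without KO replicate 1 there were 9 substrates called higher and 6 lower. The list shares 4 genes with the marker lists of other cell types, of which Vcam1 was tested.

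The 3 substrates called higher with the smallest p-values were Hbegf, Havcr2 and Tnfrsf1a. Hbegf, an EGF receptor ligand released by ADAM17, rose from 2.09 ± 1.03 to 8.22 ± 1.07 CPM (log2 fold change 1.98, FDR = 0.0106) and was called in all 6 fits without a library. Havcr2, which encodes the checkpoint receptor TIM-3, had 2.22, 1.84 and 1.44 CPM in WT and 34.6, 7.19 and 11.2 CPM in KO. KO replicate 1 was 3.77 times the mean of the other KO libraries, and the log2 fold change of 3.27 (FDR = 0.0126) became 2.31 without it (FDR = 0.00182). Tnfrsf1a, a TNF receptor that ADAM17 sheds, rose from 37.5 ± 0.90 to 75.1 ± 22.5 CPM (log2 fold change 1.003, FDR = 0.0148), or 0.71 without KO replicate 1 (FDR = 0.00341). Havcr2 and Tnfrsf1a both lost their call in each fit without a WT library, the fits with the fewest calls over all tested genes.

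The 3 substrates called lower with the smallest p-values were Il6ra, Nrp1 and Cd40lg. Il6ra, the IL-6 receptor, fell from 305 ± 29.9 to 117 ± 21.9 CPM (log2 fold change -1.38, SE 0.15, FDR = 0.00219). Cd40lg, the CD40 ligand, fell from 34.8 ± 10.7 to 15.1 ± 1.33 CPM (log2 fold change -1.21, FDR = 0.0111). Nrp1, neuropilin 1, had a log2 fold change of -0.66 (FDR = 0.00497). All 3 were called in every fit that left out 1 library.

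Further substrates were picked here after their values were seen. Tnf had a log2 fold change of 0.74 (FDR = 0.0549), which was 0.50 without KO replicate 1. Tnfrsf1b, another TNF receptor, had -0.01 (FDR = 0.959). Lag3, an inhibitory receptor, had 0.76 (FDR = 0.217), or 0.19 without KO replicate 1, and Notch1 had -0.23 (FDR = 0.093). Cd44, a hyaluronan receptor, had -0.35 (FDR = 0.32) with all libraries and -0.72 without KO replicate 1 (FDR = 0.0031). App, the amyloid precursor protein gene, had 95.7 CPM in KO replicate 1 and at most 1.57 CPM elsewhere. Vcam1, an adhesion molecule that splenic macrophages express, had 406, 35.1 and 11.2 CPM in KO replicates 1, 2 and 3 and at most 2.28 CPM in WT, and its log2 fold change of 6.23 became 3.50 without KO replicate 1.

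**Figure D5:**
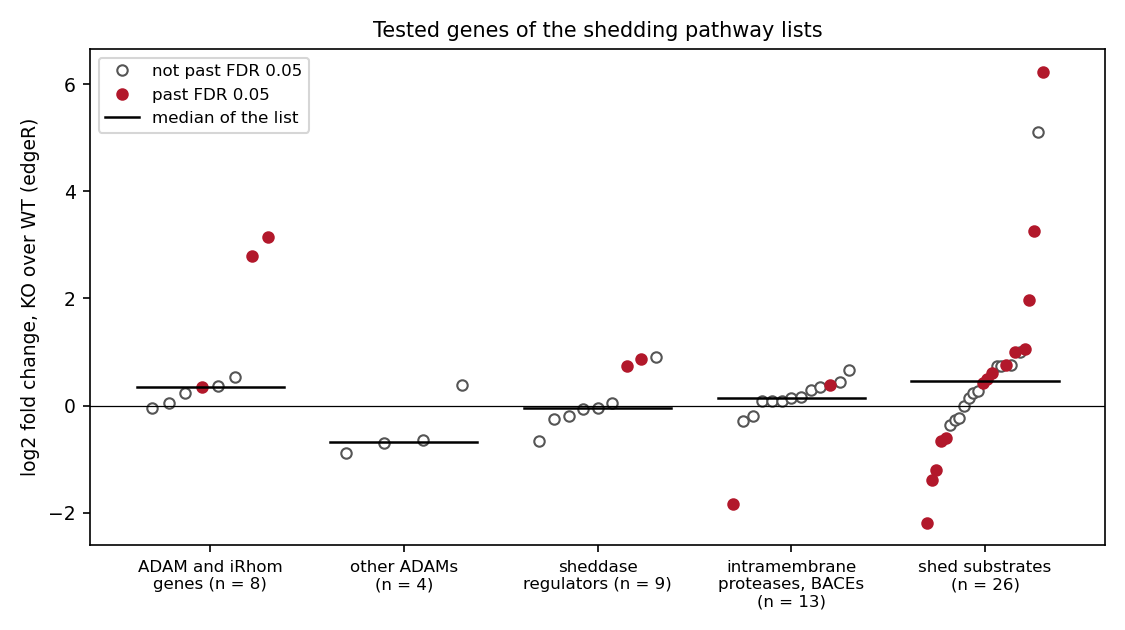
Log2 fold changes (KO over WT, vertical axis) of the tested genes of each list, with genes past an FDR of 0.05 filled and the median of each list as a line. Adam8 and Adam9 stand apart from the other 6 genes of their list, and the shed substrates spread to both sides of 0, with 9 called higher and 5 called lower.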

How the data were processed

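Total RNA of sorted CD4+YFP+ Treg cells (3 WT and 3 KO mice) was sequenced as 51-base single-end reads. The authors aligned the reads with HISAT to mm10, counted them on genes with featureCounts, not separating strands, and deposited the raw counts; tool versions are not given in the sources used here. edgeR 4.0.16 in R 4.3.3 was used on genes above 1 CPM in 3 or more libraries (TMM, QLF test, FDR under 0.05). SEs were the log2 fold change divided by the square root of F. A count of 3 corresponded to between 0.123 and 0.227 CPM. With 3 mice against 3, the smallest p of an exact two-sided permutation test is 0.1, so each call depends on the edgeR model. Every pair of replicates differed beyond counting noise. Gene models came from GENCODE vM21 (GRCm38, the build that mm10 names), with 23376 rows matched by symbol and 668 by synonym. The 8 members and the lists were chosen with earlier results of these data known. Named from each list were all called genes where 6 or fewer, otherwise the 3 with the smallest p in each direction, besides those marked as picked after seeing values. For each tested member, the 3 genes with the closest centred log2 CPM (prior count 2) could be named. The steps were tested on simulated counts. DESeq2 1.42.0 was an alternative.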

Additional observations from a re-analysis of the deposited data

How the results depend on the processing

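Adam8 and Adam9 were called higher in all 12 alternatives, and Adam19 in 4 (RLE size factors, DESeq2, the QLF, likelihood ratio and exact tests together, and without KO replicate 2). The number of the 8 genes called was 2 or 3 in every alternative. Signs turned for Adam10 (0.0137 without WT replicate 2, 0.0111 without KO replicate 2, range -0.126 to 0.0137 when 1 library was left out), Adam15 (-0.0338 with library size scaling, -0.0142 without WT replicate 2, -0.154 without KO replicate 1, -0.0118 without KO replicate 3, range -0.154 to 0.238) and Rhbdf2 (-0.406 without KO replicate 1, range -0.406 to 0.510), none of them called. The cause was not tested.

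Leaving out 1 library gave between 691 and 2340 genes called (483 to 1403 higher, 208 to 937 lower), lowest without WT replicate 2, between 5 and 17 substrates, 1 to 2 regulators, 1 to 2 intramembrane proteases and 0 to 1 other ADAM genes. Library size scaling and the lack of a filter each gave 1 other ADAM gene and 1 intramembrane protease. Library size scaling also turned the split of all calls to 1064 higher and 1201 lower. DESeq2 called 1708 higher and 1203 lower.

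Replicate numbers did not pair the libraries, as the correlations of same-numbered deviations were 0.0731, -0.0124 and -0.188. A replicate block gave 1061 higher and 545 lower genes, 1 intramembrane protease, and 0.34 (FDR = 0.075) for Adam19, and kept the calls of Adam8 and Adam9.

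Rhbdf1 had the lowest counts of the 8 genes, 32 to 68 per library.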
